A study of Rattus norvegicus with 3 samples.

Results

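The proteasome genes of rat tibialis anterior muscle were examined here: 42 genes that encode subunits of the proteolytic core, of its regulatory cap, of the activator complexes and of the factors that assemble the particle. They were taken as every gene with a single-symbol probe set whose symbol was Psma, Psmb, Psmc, Psmd, Psme, Psmf or Psmg followed by a number and nothing more, with Psmb8 and Psmb9 left out, and with the brightest probe set used for each gene. They were 42 of 14506 genes on the array, and 41 of them passed the filter that removed dim genes (10879 genes passed in all). Psma3 was left out because its probe set carries a second symbol, and Psma8, Psmf1 and Psmg3 were not analysed here. Psma3l, Psmc3ip and Psme3ip1, whose symbols go on after the number, were also left out.

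Each group was represented by 1 array, hybridised with RNA pooled in equal amounts from 6 male Wistar rats aged 11 weeks. In the Plin5 group the muscle had received the plasmid pcDNA3.1-CMV-Plin5, in the Plin2 group pENTR-CMV-Plin2, and in the control group the pcDNA3.1 plasmid with no insert, 150 µg of DNA by electroporation in each case. All rats ate high fat chow (45% of energy) for 3 weeks, received the DNA after 2 weeks of it, and gave up the muscle 8 days later. The sham-treated muscle of the other leg was not analysed here. Plin5 and Plin2 encode perilipins, proteins that coat lipid droplets. The CMV promoter is not specific to muscle fibres, the Plin2 insert sat in another plasmid backbone than the other groups, and the muscle taken was whole tissue with its vessels, connective tissue and immune cells. With 1 array a group there was no spread between samples, no test and no p-value, and every difference below is between pools. Values are log2 levels from the robust multi-array average (RMA), so a difference of 1 is a doubling, and a gene is called higher or lower when it differed by at least 1.2-fold (0.26 on the log2 scale).

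The proteasome degrades proteins that carry ubiquitin chains, and it is the main route by which muscle removes short-lived and damaged proteins, including those of the contractile apparatus during wasting. Its barrel-shaped 20S core has outer rings of alpha subunits (Psma genes) and inner rings of beta subunits (Psmb genes), of which Psmb5, Psmb6 and Psmb7 carry the active sites. The 19S cap recognises ubiquitin, unfolds the substrate with a ring of ATPases (Psmc genes) and removes the ubiquitin chain through its lid (Psmd genes). Interferon brings in replacement catalytic subunits, Psmb8, Psmb9 and Psmb10, which form the immunoproteasome, and the activator PA28, a ring of Psme1 and Psme2 that docks on the core in place of the cap and alters the peptides released for antigen presentation.

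The 11 measured markers of skeletal muscle fibres, the labelled tissue, were bright, with a mean level of 13.50 on the Plin5 array, 13.18 on the Plin2 array and 13.46 on the empty vector array. Plin5 was highest where it had been introduced, with 8.30 on the Plin5 array against 6.79 on the Plin2 array and 7.52 on the empty vector array. Plin2 likewise stood at 10.08 on the Plin5 array, 10.71 on the Plin2 array and 9.99 on the empty vector array. Macrophage markers averaged 9.33 on the Plin5 array, 10.92 on the Plin2 array and 9.80 on the empty vector array, so immune cell RNA moved with the groups. In whole muscle, fewer cells of a type and less RNA per cell cannot be told apart.

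The proteasome genes were readily detected. Mean levels of the 41 genes past the filter ran from 7.47 (Psmd10) to 11.71 (Psmb5), and 38 of them lay above the median gene (8.15). The thymus subunit Psmb11 was the 1 dim member, at 4.52 on every array, and is not counted below. Of the 41, 12 had exactly the same value on all 3 arrays (29.3%), as had 24.6% of all genes past the filter and 6.18% of the 1602 genes at least as bright as the median proteasome gene. These 12 were Psma1, Psma4, Psma7, Psmb1, Psmc3, Psmc4, Psmd2, Psmd3, Psmd5, Psmd10, Psmd13 and Psmd14. The 29.3% and the 6.18% are not like shares, since the former also covers members dimmer than the median proteasome gene (10.04). Of the 12, Psma1, Psmb1, Psmd2 and Psmd14 were at least that bright. The share of equal values among members at least that bright was not set beside the 6.18%. An equal value says that no difference was resolved and not that there was none; why values are exactly equal was not tested.

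**Figure D1:**
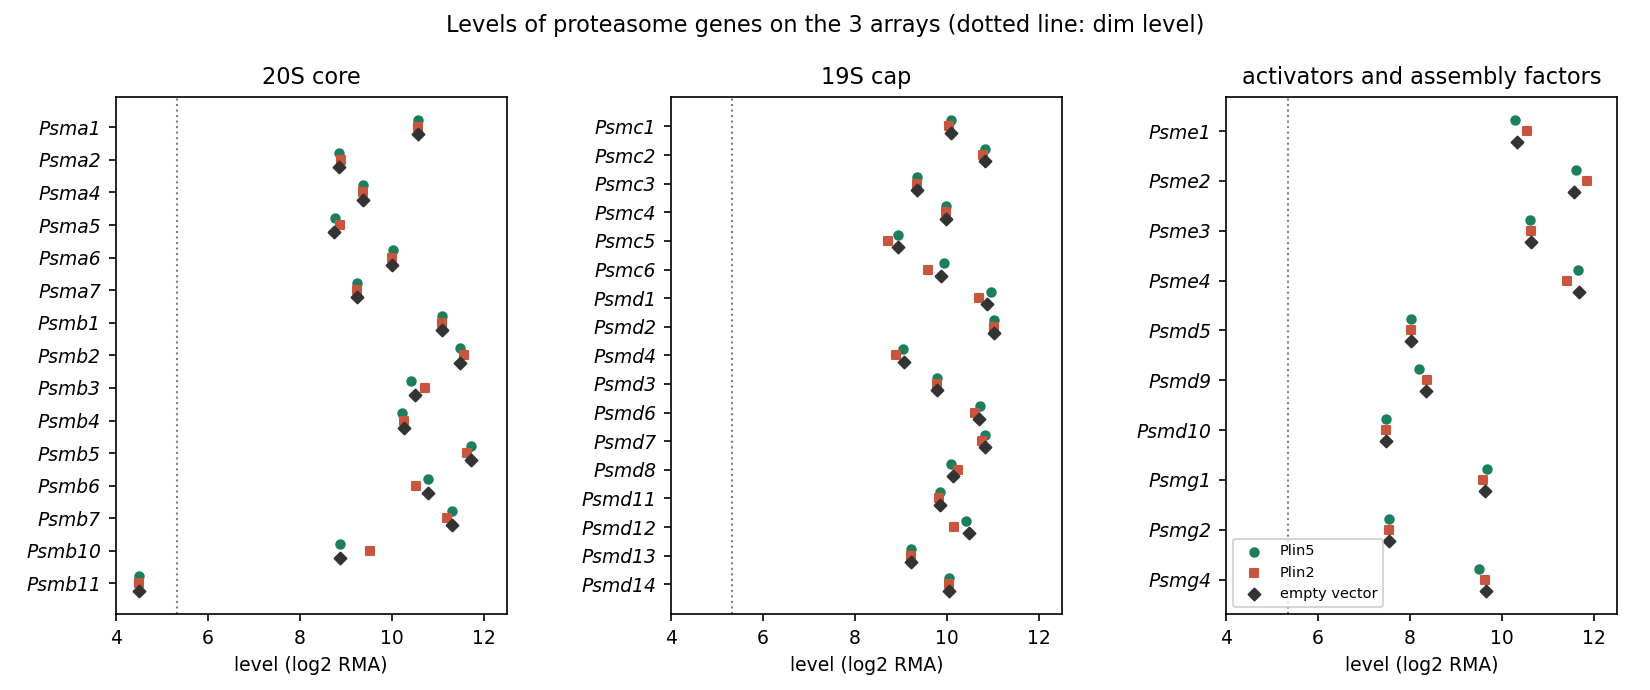
Log2 RMA level (x axis) of each proteasome gene (rows) on the Plin5 array (circles), the Plin2 array (squares) and the empty vector array (diamonds), with 1 array per group. The marks of most genes nearly coincide, Psmb10 stands apart on the Plin2 array (9.53 against 8.89), and Psmb11 lies left of the dotted dim level (5.34); levels of different genes are not comparable, since each probe set has its own brightness.

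On the Plin5 array the proteasome genes stood almost where they stood on the empty vector array. None of the 41 genes differed by 1.2-fold in either direction, where 7.22% of all genes did (1.52% higher and 5.71% lower). None differed by 1.5-fold either, beside 1.64% of all genes (0.221% higher and 1.42% lower). The median difference was 0.00, as it was over all genes, and the median size of the difference without regard to sign was 0.002 against 0.020 over all genes. Of the 41, 8 were above the empty vector, 13 below and 20 exactly equal, beside 25.8%, 34% and 40.2% of all genes.

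The members with the largest differences on the Plin5 array were assembly factors. Psmd9, a chaperone that helps to build the base of the cap, stood at 8.20 on the Plin5 array and 8.36 on the empty vector array, a difference of −0.16. Psmg4, a chaperone for the alpha ring, stood at 9.50 on the Plin5 array and 9.65 on the empty vector array, a difference of −0.15. Both were lower on the Plin5 array by less than the 1.2-fold limit. Of the other assembly factors, Psmg1 was at 0.04 and Psmg2 at −0.003, and Psmd5 and Psmd10 were equal.

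Within the 20S core, Plin5 minus empty vector differences ran from −0.10 to 0.02 over 14 genes, with 8 exactly equal. The probe set shared by Psma3 and Psma3l, which is outside the members, was at 0.19. The lowest was Psmb3, a structural beta subunit, at 10.42 on the Plin5 array and 10.52 on the empty vector array. Psmb5, the chymotrypsin-like subunit, was equal at 11.73, Psmb6, the caspase-like subunit, differed by −0.02, and Psmb7, the trypsin-like subunit, by −0.01. The inducible subunit Psmb10 was equal at 8.89. In the 19S cap, differences ran from −0.08 to 0.09 over 17 genes, with 10 equal. They were led upward by Psmc6 (0.09), an ATPase of the base, and Psmd1 (0.07), the base scaffold, and downward by Psmd12 (−0.08), a lid subunit. The activators Psme1 (−0.02), Psme2 (0.03), Psme3 (−0.02) and Psme4 (−0.01) lay close to 0 by their brightest probe sets. Second, dimmer probe sets gave 0.31 for Psme1, 0.29 for Psme3 and 0.02 for Psme2, so the values of Psme1 and Psme3 are uncertain.

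**Figure D2:**
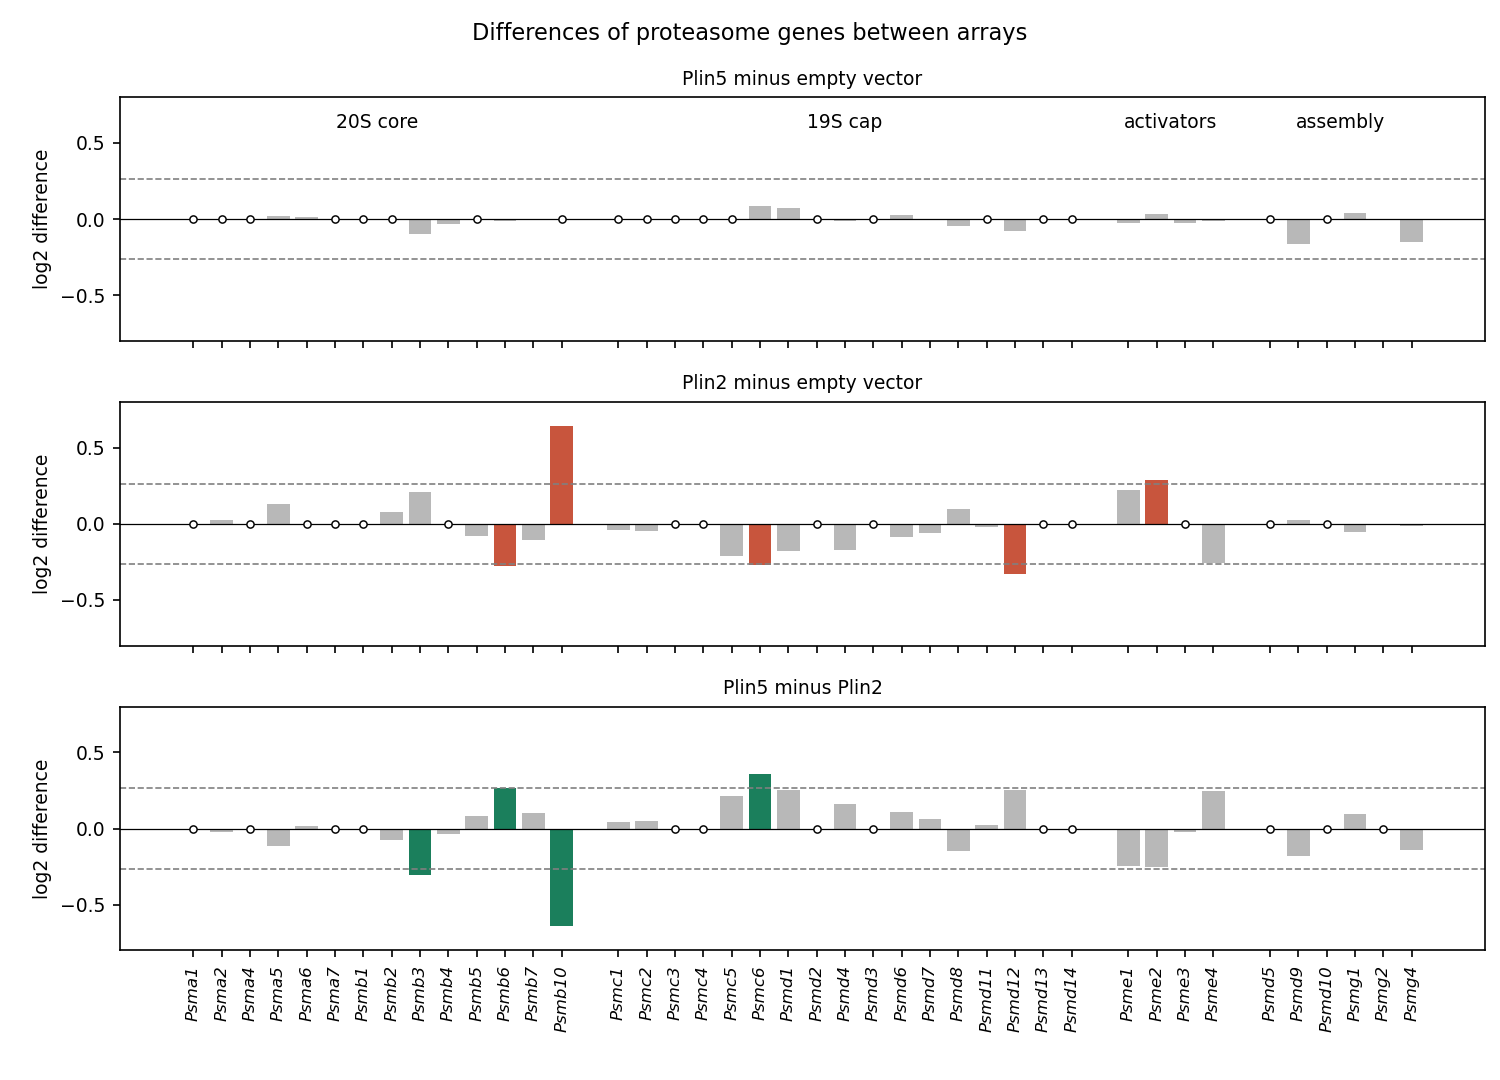
Log2 difference (y axis) of each proteasome gene past the dim filter for Plin5 minus empty vector, Plin2 minus empty vector and Plin5 minus Plin2. Coloured bars pass 1.2-fold (dashed lines), grey bars do not, and open circles mark exactly equal values; 0 of 41 genes are coloured in the top panel, 5 in the middle and 4 at the bottom.

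On the Plin2 array most proteasome genes also stood near the empty vector, with 5 exceptions. Psmb10 and Psme2, both known to be inducible by interferon, were higher by at least 1.2-fold, which is 2 of 41 beside 19.4% of all genes. Psmb6, Psmc6 and Psmd12 were lower by that amount, which is 3 of 41 beside 15.5%. Only Psmb10 reached 1.5-fold, an amount by which 8.84% of all genes were higher and 5.8% lower (14.6% in all). The median difference of the 41 genes was 0.00, as over all genes, and the median size was 0.044 against 0.122. Of the 41, 9 were above the empty vector, 17 below and 15 exactly equal, beside 38.3%, 31.7% and 30% of all genes. The median of 0.00 thus falls among equal values, and over the members with unequal values it was −0.05. Leaving out Psmb10, Psme1 and Psme2, a set chosen after the values were seen, fixes the count of higher genes at 0. This holds by construction, since the only genes called higher are among them. Of the other 38, 3 were lower.

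Psmb10, the inducible trypsin-like subunit, stood at 8.89 on the Plin5 array, 9.53 on the Plin2 array and 8.89 on the empty vector array. It was higher on the Plin2 array than on either other array, by 0.64 (1.56-fold) in both cases. Psme2, the beta subunit of PA28, stood at 11.60 on the Plin5 array, 11.85 on the Plin2 array and 11.56 on the empty vector array, so Plin2 minus empty vector was 0.29 (1.22-fold). Its second probe set gave 11.24, 11.46 and 11.22 on the same arrays, a Plin2 minus empty vector difference of 0.24. Psme1, the alpha subunit of PA28, stood at 10.29 on the Plin5 array, 10.54 on the Plin2 array and 10.32 on the empty vector array, a difference of 0.22 for Plin2 that stayed under 1.2-fold, while its second probe set gave 0.27. Copies were counted by symbol, as a member's symbol followed by -ps or l and a number, so copies under other names were not counted. By that count RefSeq lists 3 pseudogenes or gene-like copies each for Psme1 and Psme2 and none for Psmb10. Probes that also bind near-identical copies could add to the PA28 values, which are uncertain for that reason. The same limit holds for the genes called lower, with 3 copies listed for Psmb6, 2 for Psmc6 and 1 for Psmd12.

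The stretches of 250 bases before the RefSeq start sites are shown for Psmb10 and Psme2, the members called higher on the Plin2 array. Beside them are Psme1 and Psmb7, the PA28 partner and the constitutive counterpart. The first pair holds letters of a known interferon element and the second pair does not. Psme1, without these letters, was at 0.22 and 0.27 by its probe sets for Plin2 minus empty vector, beside 0.29 and 0.24 for Psme2. Whether the letters bear on the differences was not tested. The sequences are from RefSeq on build GRCr8, written 5′ to 3′ on the strand of the gene. Psmb10 is at chr19:50743293-50743542 (minus strand), Psme2 at chr15:33052752-33053001 (minus strand), Psme1 at chr15:33038721-33038970 (plus strand) and Psmb7 at chr3:42827471-42827720 (minus strand). Capitals mark the letters of a searched motif: the interferon-stimulated element core in Psmb10 and Psme2, and CCAAT boxes in Psmb7.
Psmb10: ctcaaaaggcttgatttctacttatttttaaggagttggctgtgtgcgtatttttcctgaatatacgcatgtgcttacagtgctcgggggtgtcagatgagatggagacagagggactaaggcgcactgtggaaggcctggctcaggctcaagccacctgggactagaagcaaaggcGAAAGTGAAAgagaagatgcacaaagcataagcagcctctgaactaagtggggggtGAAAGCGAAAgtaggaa
Psme2: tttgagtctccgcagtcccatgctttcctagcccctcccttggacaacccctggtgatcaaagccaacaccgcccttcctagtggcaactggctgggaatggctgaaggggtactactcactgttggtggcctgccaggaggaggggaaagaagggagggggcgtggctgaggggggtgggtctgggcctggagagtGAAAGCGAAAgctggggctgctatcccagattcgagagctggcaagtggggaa
Psme1: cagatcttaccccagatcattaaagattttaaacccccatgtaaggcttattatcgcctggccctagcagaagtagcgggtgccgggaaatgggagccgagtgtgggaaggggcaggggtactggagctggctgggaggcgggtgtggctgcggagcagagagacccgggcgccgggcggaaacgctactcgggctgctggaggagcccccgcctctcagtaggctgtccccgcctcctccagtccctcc
Psmb7: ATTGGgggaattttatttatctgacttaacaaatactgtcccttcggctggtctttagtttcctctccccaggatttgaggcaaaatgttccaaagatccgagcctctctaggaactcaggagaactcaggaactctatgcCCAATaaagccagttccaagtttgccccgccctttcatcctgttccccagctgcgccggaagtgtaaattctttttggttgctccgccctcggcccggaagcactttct
Counted from the start site, the element core begins at −73 and −17 in Psmb10 and at −53 in Psme2, and in the Psme1 window none of the motifs given here was found.

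The 3 motifs given here were searched on both strands in windows of 300 bases, 250 before and 50 after the start site, for the 37 of 42 members with an entry (Psma7, Psmb11, Psmd6, Psmd12 and Psmd14 had none) and for all 33469 promoters. The interferon-stimulated response element core, which is GAAA, then 2 bases of any kind, then GAAA, letters bound by interferon regulatory factors, was in 6 of the 37 (16.2%) and in 3.92% of all promoters. Besides Psmb10 and Psme2 it was in Psma4, Psmb3, Psmd7 and Psmg4, whose Plin2 minus empty vector differences were 0.00, 0.21, −0.06 and −0.01. The antioxidant response element core TGACNNNGC, bound by Nfe2l1 and Nfe2l2, was in 7 members (18.9%), and in 12.1% of all. Their Plin2 minus empty vector differences were 0.08 for Psmb2, −0.08 for Psmb5, −0.28 for Psmb6, −0.18 for Psmd1, 0.00 for Psmd3, 0.02 for Psmd9 and −0.26 for Psme4. The CCAAT box (CCAAT), bound by NF-Y, was in 16 members (43.2%) and in 37.5% of all. In Psmb2 a CCAAT box begins at −72 and the antioxidant element at −68, so that they overlap. A match to letters is a description of sequence and not a measured site.

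Each inducible catalytic subunit takes the place of a constitutive one in the core, and on the Plin2 array the inducible subunit of every pair was higher relative to its counterpart than on the empty vector array. Psmb10 was at 0.64 and Psmb7, which it replaces, at −0.11, so that the ratio of their signals was 1.68-fold that on the empty vector array. Psmb9 stood at 10.05 on the Plin5 array, 10.66 on the Plin2 array and 9.60 on the empty vector array, a Plin2 difference of 1.05, while Psmb6 was at −0.28, a shift of their ratio of 2.52-fold. Psmb8 stood at 8.54 on the Plin5 array, 9.63 on the Plin2 array and 8.76 on the empty vector array, a Plin2 difference of 0.86, while Psmb5 was at −0.08, a shift of 1.92-fold. Such a ratio shows unequal change of the genes in a pair and no absolute amount of either. The ratios are of whole muscle, and the part that a change in its mix of cells has in them was not tested.

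On the Plin5 array the same pairs did not share a direction. The Psmb10 to Psmb7 ratio was 1.00-fold that on the empty vector array, the Psmb9 to Psmb6 ratio 1.38-fold and the Psmb8 to Psmb5 ratio 0.86-fold. Psmb9 was higher by 0.44 and Psmb8 was at −0.22, although Psmb8 and Psmb9 lie close together in the genome with only Tap1 between them in the RefSeq table.

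**Figure D3:**
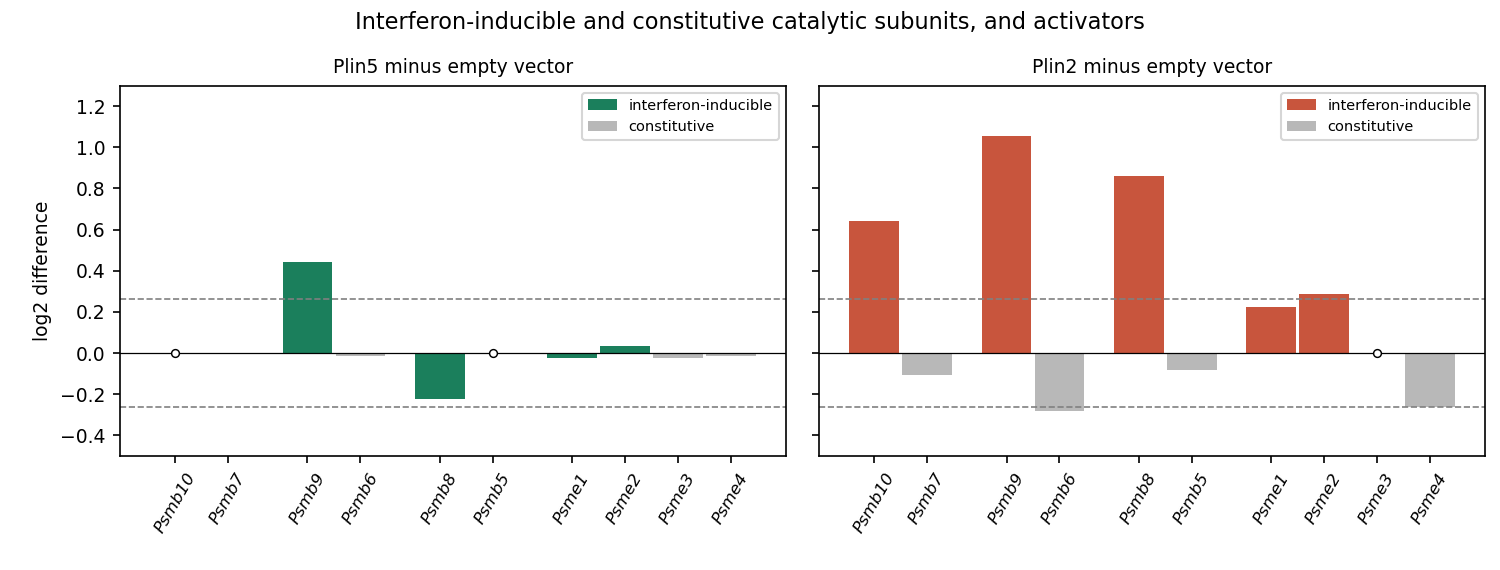
Log2 difference (y axis) of the inducible catalytic subunits beside the subunit each replaces, and of the 4 activators, for Plin5 minus empty vector (left) and Plin2 minus empty vector (right). Coloured bars are interferon-inducible genes, grey bars constitutive ones, open circles exactly equal values and dashed lines 1.2-fold; all 5 coloured bars are above 0 on the right, where Psmb9 reaches 1.05, and no grey bar is.

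Within the 20S core the remaining subunits differed little on the Plin2 array. The alpha ring, which gates the entry to the core, had differences from 0.00 to 0.13 over 6 genes by their brightest probe sets. Of these, 4 were equal, and the highest was Psma5 (0.13). For Psma6, which was equal, a second probe set near the dim level (5.34) gave −0.23. Of the structural beta subunits, Psmb3 stood at 10.42 on the Plin5 array, 10.73 on the Plin2 array and 10.52 on the empty vector array, a Plin2 minus empty vector difference of 0.21. Counted by symbol, RefSeq lists 10 pseudogenes or like copies of Psmb3, more than for any other member, so its value is uncertain. Psmb2 was at 0.08, and Psmb1 and Psmb4 were equal. All 3 constitutive catalytic subunits were below the empty vector, although with a loess correction for mean level Psmb5 was at 0.04. Psmb6 stood at 10.79 on the Plin5 array, 10.52 on the Plin2 array and 10.80 on the empty vector array, a difference of −0.28 (1.21-fold lower). A second probe set of Psmb6 gave −0.16, which did not pass 1.2-fold.

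The 19S cap leaned downward on the Plin2 array. Of its 17 genes, 10 were below the empty vector, 1 was above and 6 were equal, beside 31.7% below, 38.3% above and 30% equal over all genes, and the median was −0.04. With the loess correction that median was 0.003, so the lean depends on the scaling. The lid subunit Psmd12 stood at 10.41 on the Plin5 array, 10.16 on the Plin2 array and 10.49 on the empty vector array, a difference of −0.33 (1.26-fold lower) and the lowest of the 41 genes. The base ATPase Psmc6 stood at 9.95 on the Plin5 array, 9.59 on the Plin2 array and 9.86 on the empty vector array, a difference of −0.27 (1.21-fold lower). For both genes the Plin2 array was the lowest of the 3.

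Next below these in the cap, and short of 1.2-fold, were Psmc5 (−0.21), an ATPase of the base, Psmd1 (−0.18), the base scaffold, and Psmd4 (−0.17), a ubiquitin receptor. The lid deubiquitinase Psmd14, which cuts the ubiquitin chain from the substrate, was equal on all arrays at 10.04, as were the lid subunits Psmd3 and Psmd13, the base scaffold Psmd2 and the ATPases Psmc3 and Psmc4. The only cap gene above the empty vector was the lid subunit Psmd8 (0.10). Its second, dimmer probe set went the other way (−0.21), so the direction for Psmd8 is uncertain.

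The 4 activators did not share a direction on the Plin2 array. Psme4, which encodes PA200, a large nuclear activator, stood at 11.65 on the Plin5 array, 11.41 on the Plin2 array and 11.67 on the empty vector array, a difference of −0.26 that lay just inside the 1.2-fold limit. Psme3, which forms a nuclear relative of PA28, was equal at 10.62 on the Plin2 and empty vector arrays, but its second probe set gave 0.31. With Psme1 at 0.22 and Psme2 at 0.29 the median of the activators was 0.11, but these values ran from −0.26 to 0.29. The assembly factors, by contrast, lay between −0.05 (Psmg1) and 0.02 (Psmd9).

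The medians of the classes of the particle were also set side by side. For Plin5 minus empty vector the medians were −0.02 for the activators, 0.00 for the core and 0.00 for the cap. For Plin2 minus empty vector they were 0.11, 0.00 and −0.04 in the same order, and for Plin5 minus Plin2 −0.14, 0.00 and 0.04. The classes hold 4, 14 and 17 genes, and the activator median rests on the PA28 genes: with these left out, a choice made after the values were seen, it was −0.13 for Plin2 minus empty vector and 0.11 for Plin5 minus Plin2. No test of a difference between classes was possible with 1 array a group.

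**Figure D4:**
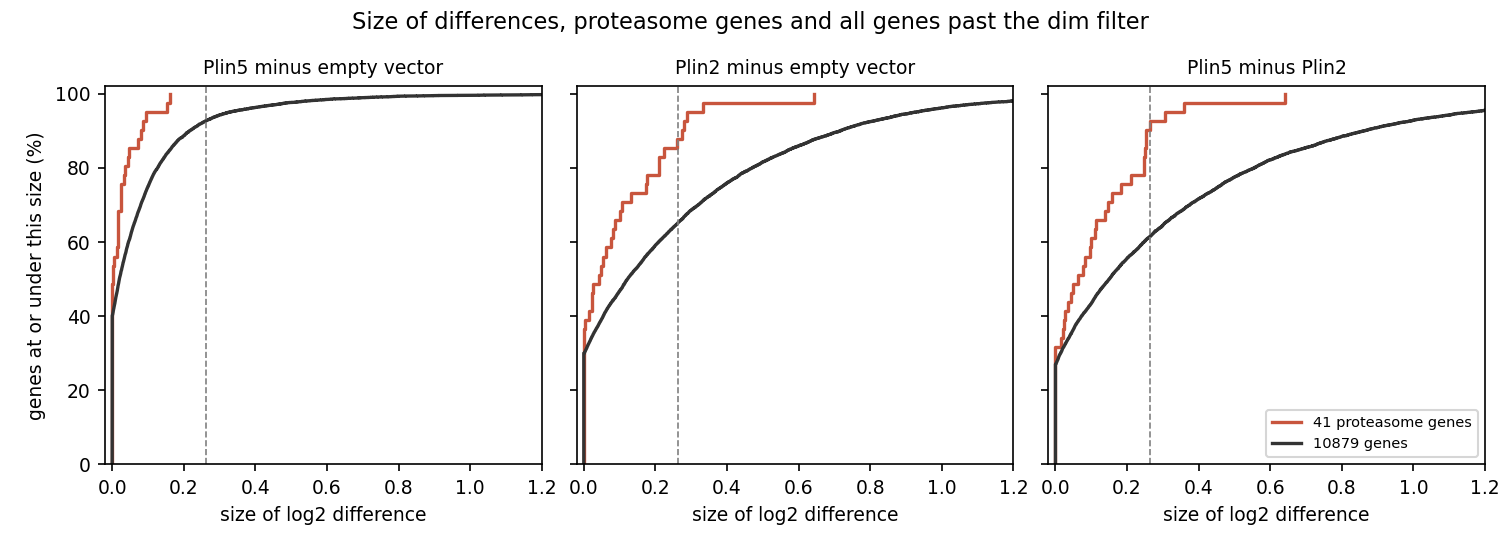
Cumulative share of genes (y axis, percent) whose log2 difference, without regard to sign, is at or under the size on the x axis, for the 41 proteasome genes and for the 10879 genes past the dim filter. The dashed line marks 1.2-fold, which 0, 5 and 4 of the 41 proteasome genes pass from left to right, beside 7.22%, 34.8% and 38.6% of all genes.

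The direct comparison of Plin5 with Plin2 shares both arrays with the comparisons above and so adds the same values in another form. Psmc6 (0.36) and Psmb6 (0.26) were higher on the Plin5 array by at least 1.2-fold, which is 2 of 41 beside 16.6% of all genes. Psmb6 passed narrowly, at 1.201-fold, and its second probe set gave 0.16, which did not pass. Psmb10 (−0.64) and Psmb3 (−0.31) were lower, which is 2 of 41 beside 22%. Psmb3 passed the limit here because it stood above the empty vector on the Plin2 array and below it on the Plin5 array, each by less than 1.2-fold. Psmd12 (0.25), Psmd1 (0.25), Psme4 (0.25), Psme2 (−0.25) and Psme1 (−0.25) all lay just inside the limit. At 1.5-fold, 0 of 41 were higher and 1 was lower, beside 7.19% and 11.3% of all genes (18.4% in all). Of the 41 genes, 16 were above 0, 12 below 0 and 13 equal, beside 32.7%, 40.2% and 27% of all genes.

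These counts depended on how the arrays were scaled. Centring each array on its median gene moved the median of all genes by 0.12 for Plin5 minus Plin2, −0.08 for Plin2 minus empty vector and 0.04 for Plin5 minus empty vector. For Plin5 minus Plin2 it gave 7 proteasome genes higher and 1 lower, and for Plin2 minus empty vector 1 higher and 5 lower. Over all genes the share of called genes that were higher went to 56.8% with centring against 42.9% without it for Plin5 minus Plin2, to 44.9% against 55.6% for Plin2 minus empty vector, and to 33.4% against 21% for Plin5 minus empty vector. Psmb10 remained above the limit on the Plin2 array under each scaling tried (0.56 to 0.64), and so did Psmd12 below it (−0.42 to −0.28). Psme2, Psmb6 and Psmc6 each lost the call under at least 1 scaling, with ranges of 0.20 to 0.41, −0.36 to −0.21 and −0.36 to −0.25. The Plin5 minus empty vector count stayed at 0 in both directions under each.

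Genes that work with the proteasome were examined from lists of its partners, of ubiquitin supply and delivery, and of regulators of proteasome genes. Of 13 measured partners, none was lower and 1 higher by at least 1.2-fold on the Plin5 array, and 3 were higher and 3 lower on the Plin2 array. Over all genes 1.52% were higher and 5.71% lower on the Plin5 array, and 19.4% were higher and 15.5% lower on the Plin2 array, and the counts of the lists that follow stand beside the same shares. With 6 of 13 called beside 34.8% of all genes, the partners do not stand out by their count on the Plin2 array. The higher ones on the Plin2 array were Psmb9, Psmb8 and Zfand2a (0.28), a stress-induced proteasome adaptor. The lower ones were Ubxn1 (−0.60), a cofactor of the unfoldase Vcp, Zfand5 (−0.59), which stimulates the proteasome in muscle wasting, and Uchl5 (−0.41), a deubiquitinase of the cap. Pomp, the maturation factor of the core, was at −0.17 on the Plin5 array and −0.04 on the Plin2 array.

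Of 25 genes of ubiquitin supply and delivery, none passed 1.2-fold on the Plin5 array, and 2 were lower and none higher on the Plin2 array: Faf1 (−0.37), an adaptor of Vcp, and Ube2d1 (−0.27), a ubiquitin-conjugating enzyme. These are 8% of the list, beside 34.8% of all genes in either direction. Their median was 0.00 in each comparison.

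The list of 17 regulators also holds the ubiquitin ligases Fbxo32 and Trim63, which are not regulators of proteasome genes. Of the 17, none passed on the Plin5 array, and 3 were higher and 4 lower on the Plin2 array, the ligases among the lower. That is 41.2% beside 34.8% of all genes and no result about the list. Nfe2l1, the transcription factor that raises proteasome genes when the proteasome is impaired, stood at 11.39 on the Plin5 array, 11.04 on the Plin2 array and 11.33 on the empty vector array, a Plin2 minus empty vector difference of −0.29. Its relative Nfe2l2, the factor of the oxidative stress response, was at 0.20 for Plin2 and −0.06 for Plin5. Bach1 (0.57), a repressor at antioxidant elements, and Foxo3 (0.47) were higher on the Plin2 array, and the muscle ubiquitin ligases Fbxo32 (−0.82) and Trim63 (−0.68) were lower. Fbxo32 stood at 11.65 on the Plin5 array, 10.65 on the Plin2 array and 11.47 on the empty vector array.

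**Figure D5:**
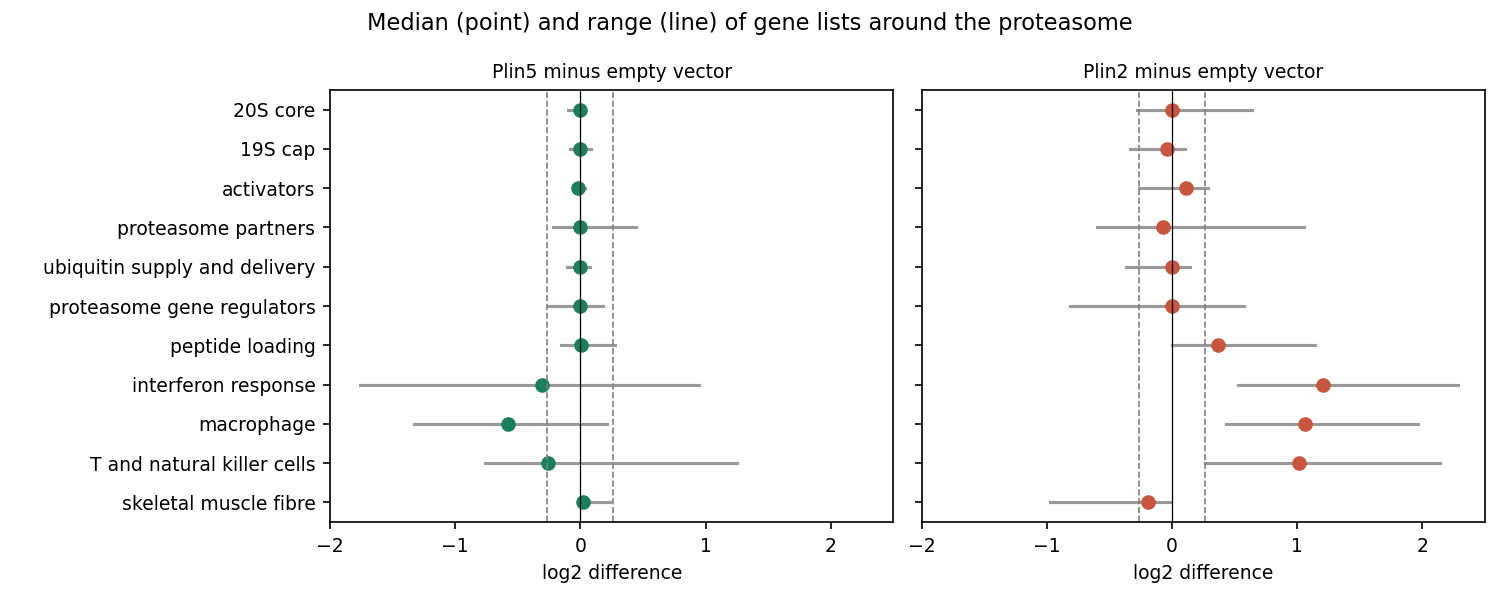
Median (point) and range from lowest to highest gene (line) of the log2 difference for the proteasome classes and for lists around the proteasome, for Plin5 minus empty vector (left) and Plin2 minus empty vector (right), with 1.2-fold as dashed lines. On the right the interferon (median 1.21), macrophage (1.06) and T and natural killer cell (1.01) lists lie wholly above 0, while the medians of the 20S core (0.00) and 19S cap (−0.04) lie close to it.

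Interferon and immune cell genes moved with the inducible subunits on the Plin2 array. All 25 measured interferon response genes were higher there by at least 1.2-fold, with a median of 1.21, led by Cxcl11 (2.29), Cxcl10 (1.93), Ifit3 (1.72) and Oasl (1.66). Irf1, the factor that switches on immunoproteasome genes, stood at 9.55 on the Plin5 array, 10.13 on the Plin2 array and 8.80 on the empty vector array, so it was higher by 0.76 for Plin5 and by 1.33 for Plin2. On the Plin5 array 9 of the 25 interferon genes were higher and 13 lower (median −0.31), with Mx2 at −1.76 and Cxcl11 at 0.95. Of 8 peptide loading genes, which carry proteasome products to the cell surface, 5 were higher on the Plin2 array (Tap1 at 1.14 and Tapbp at 0.86 the most) and 1 on the Plin5 array (Tap1 at 0.28).

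Markers of macrophages were higher by at least 1.2-fold on the Plin2 array for 19 of 19 genes and lower on the Plin5 array for 15 of 19, with medians of 1.06 and −0.58. Markers of T and natural killer cells were higher on the Plin2 array for 16 of 16, and on the Plin5 array 2 were higher and 8 lower, with medians of 1.01 and −0.26. Their mean level was 7.67 on the Plin5 array, 8.84 on the Plin2 array and 7.74 on the empty vector array. Muscle fibre markers were lower on the Plin2 array for 5 of 11 genes, with a median of −0.19, and passed 1.2-fold for none on the Plin5 array. The part that these cells have in the Psmb8, Psmb9, Psmb10, PA28 and cap values was not tested.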

How the data were processed

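The deposited log2 levels were made by the authors with RMA, per the submitters' processing notes (no version). Base 2 is an inference from RMA and from the range of values (2.06 to 14.04), and every fold change rests on it. For the annotation and build behind the arrays, the answer is "not given in the sources used here". Per the labels' protocols, equal amounts of RNA from 6 rats were pooled per array and 100 ng was labelled. Precision is limited by having 3 arrays, 1 per group.

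Of 29214 probe sets, 15310 had 1 symbol in the platform annotation, 323 several and 13581 were not listed. Each symbol was represented by its brightest probe set on average, and genes with a mean under the 25th percentile (5.34) were left out as dim. Each comparison was a difference of log2 levels between a pair of arrays, with no test. Values within 1e-06 counted as equal. The members and lists were chosen with earlier results of these data known. All members could be named, with Plin5, Plin2, Psmb8, Psmb9, Nfe2l1, Nfe2l2 and Irf1, and up to 4 genes of each list with the largest difference in each comparison; Zfand2a and Uchl5 fall outside this and were named within a count, after their values were seen. Of 221 list entries, 23 were not measured. Promoters were matched by gene number to RefSeq (GRCr8). Alternatives were other dim filters, array centring, a further quantile normalization, loess, averaged probe sets, means in place of medians, equal values, the fold limit and the class borders, and leaving out Psmb10, Psme1 and Psme2 was added after the data were seen. A further motif that was searched, and that a smaller share of members than of all promoters held, is not reported here. The calculations were checked on simulated data. Python 3.11.15 was used with pandas 2.3.3, numpy 2.4.6, statsmodels 0.14.6 and matplotlib 3.10.9.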

Additional observations from a re-analysis of the deposited data

Results flagged for a closer look

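Further probe sets of 2 activator genes, which were dimmer than those used above, showed signal above the empty vector on both perilipin arrays. A Psme1 probe set (10795460) stood at 6.47 on the Plin5 array, 6.43 on the Plin2 array and 6.16 on the empty vector array, differences of 0.31 and 0.27 against the empty vector, while the brighter Psme1 probe set gave −0.02 and 0.22. A Psme3 probe set (10882532) stood at 8.04 on the Plin5 array, 8.06 on the Plin2 array and 7.75 on the empty vector array, differences of 0.29 and 0.31, while the brighter Psme3 probe set gave −0.02 and 0.00. The probe sets disagree for Plin5 in both genes and for Plin2 in Psme3. Counted by symbol, RefSeq lists 3 pseudogenes or like copies of Psme1 and 4 of Psme3, and their part in these values was not tested.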

How the results depend on the processing

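No paired analysis was possible because each group had 1 array. Medians counted as moved past 0.1 log2 units, a tolerance chosen because no spread between replicates exists, and counts past 1.5 times. Of the alternative values for counts and medians, 144 stayed within these limits and 24 moved. Of those for single genes, 681 stayed and 57 moved, 41 of them with centring, and no called gene changed sign. For Plin2 minus empty vector, 2 members were higher and 3 lower; the counts were 1 and 5 with centring, 4 and 1 with the loess correction and 1 and 0 at 1.5-fold. Without Psmb10, Psme1 and Psme2, 0 were higher by construction, since that set holds every member called higher. The activator median (0.11) was 0.22 without equal genes and −0.13 without those 3 genes. For Plin5 minus Plin2, 2 members were higher and 2 lower; the counts were 7 and 1 with centring, 1 and 4 with quantile normalization, 1 and 4 with loess and 0 and 1 at 1.5-fold. With averaged probe sets 1 was higher. Without the 3 genes 1 was lower, again by construction, since Psmb10 is among them. Centring gave medians of 0.12 for all members (0.00 as deposited), 0.12 for the core (0.00), 0.17 for the cap (0.04) and −0.012 for the activators (−0.14, or 0.11 without the 3 genes). Centring adds the same amount to every gene in a comparison. For Plin5 minus Plin2 this was 0.12, past the tolerance of 0.1, so all 41 members counted as moved by construction. The shifts of these medians are that same amount and say nothing about single genes. The cause of the other changes was not tested. With 1 pool a group, differences of this size cannot be set against a spread between animals.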

Other observations

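Other large protein complexes were read in the same way. The 8 subunits of the chaperonin TRiC, which folds actin and tubulin, had a median of −0.01 on the Plin5 array and 0.07 on the Plin2 array against the empty vector, and none passed 1.2-fold; the Plin2 value is smaller than the shift that centring makes (−0.08). Of 21 cytosolic ribosomal proteins, 3 were higher by at least 1.2-fold on the Plin2 array (Rpl3 at 0.70, Rps18 at 0.44 and Rps19 at 0.34), with a median of 0.16, and none passed on the Plin5 array (median −0.08). On the Plin2 array 19 of the 21 were above 0 and 2 were equal.

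Genes of regenerating muscle were higher on the Plin2 array for 8 of 9 genes (median 0.82, with the fusion factor Mymk at 1.41) and lower on the Plin5 array for 5 of 9 (median −0.47). Tendon markers were lower on the Plin5 array for 5 of 7 (median −1.03) and on the Plin2 array for 3 of 7 (median −0.23), where Scx was higher (0.38). Of 9 fibroblast markers, Lum was higher on the Plin2 array (0.43) and none passed on the Plin5 array, with medians of 0.14 on the Plin2 array and −0.09 on the Plin5 array. Endothelial markers had medians of 0.00 on the Plin2 array and 0.06 on the Plin5 array, and none of 9 passed in either.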
